A study of Mus musculus with 6 samples.

Results

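DPPA4 occupancy was examined at 5 genes with roles in early development or pluripotency, Dppa4, Dppa2, Dppa3, Dppa5a and Zfp42, out of 21938 protein-coding genes in the GENCODE vM21 annotation of mm10. The genes were chosen by name, and for each gene every DPPA4 peak with at least 1 bp within 50 kb of the gene body was taken. This gave 37 of 83602 peaks in the GFP-negative list and 26 of 54642 in the GFP-positive list, counted on chromosomes 1 to 19, X and Y. The question was whether DPPA4 occupies its own locus, which it shares with the gene for its partner DPPA2, and how that locus compares with the other genes.

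The data came from CUT&RUN, in which an antibody directs a nuclease to cut out the DNA around a bound protein. All cells were mouse embryonic stem cells of a BL6/129 hybrid background carrying EHMT2-dTAG, a degradable form of the histone methyltransferase EHMT2, together with a MERVL-GFP reporter. They were grown in FBS/LIF on feeder cells, treated with dTAG for 72 h to remove EHMT2, and sorted into GFP-negative cells (here mESCs) and GFP-positive cells (2CLCs, cells that resemble the 2-cell embryo). DPPA4 was profiled in 2 libraries of each state, and 2 IgG libraries, from GFP-negative and from bulk cells, were made alongside. Every group was depleted of EHMT2, so no value here describes cells that keep it. Each deposited peak list pools both libraries of its state, which leaves no spread between replicates, and differences between mESCs and 2CLCs are descriptions without a test. The number of fragments kept behind each list is unknown, the lists hold no expression values with which to check the sort, and a peak absent from a list was not called at that depth. For each peak MACS2, the peak caller, gave a fold enrichment over its local background and a −log10 q, where q is the adjusted p-value. The lowest −log10 q in each list was 1.30. The median peak had a fold enrichment of 4.27 and a −log10 q of 3.71 in mESCs, and 4.13 and 3.44 in 2CLCs.

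DPPA4 and DPPA2 form a heterodimer of DNA-binding SAP-domain proteins. In mESCs they are known to be needed for the expression of Dux and of other genes of the 2-cell stage, and to sit at CpG-rich promoters of developmental genes. Dppa3 (Stella) encodes a maternal factor that protects the genome of the early embryo from loss of DNA methylation. Dppa5a (Esg1) encodes an RNA-binding protein of the KH family, and Zfp42 (Rex1) a zinc finger protein related to YY1 that is widely used as a marker of naive pluripotency. Despite their names, Dppa3 and Dppa5a are not sequence relatives of Dppa2 and Dppa4.

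At the Dppa4-Dppa2 locus DPPA4 peaks lay in and around Dppa2, and no summit lay within the body of Dppa4 in either list. The same held for the body of Dppa5a, and the share of all genes without such a summit was not counted. Dppa4 (ENSMUSG00000058550.15, chr16:48283733-48294237, plus strand) and Dppa2 (ENSMUSG00000072419.5, chr16:48303908-48319723, plus strand) are neighbours 9.67 kb apart, with start sites 20.2 kb apart. Their windows held the same peaks, so the pair counts as 1 locus with 4 peaks in mESCs and 7 in 2CLCs. In mESCs 67.9% of protein-coding genes had at least as many peaks, and in 2CLCs 37.1%. The median gene had 7 peaks (quartiles 3 and 15) in mESCs and 4 (quartiles 2 and 10) in 2CLCs. In mESCs 91.5% of genes had at least 1 peak within 50 kb and in 2CLCs 90.0%, and all 5 genes did in both lists.

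The summit nearest to the Dppa4 start site in mESCs was 19.9 kb away, at the start of Dppa2. In 2CLCs a peak of 1266 bp had its summit 1.76 kb upstream of Dppa4. Its −log10 q was 1.46 and its fold enrichment 3.30, and 93.7% of the 2CLC peaks were at least as strong by q. This was the only peak at the Dppa4 start in either list, and it lay near the lower limit of its list.

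At the Dppa2 start mESCs had a pair of weak peaks. The summit 314 bp upstream of the start site had a −log10 q of 2.17, and the summit 275 bp downstream, in the first exon of transcript Dppa2-202, had 3.71. In 2CLCs a single peak spanned both, with its summit 269 bp downstream and a −log10 q of 2.66. Peaks were thus called there in both states, at −log10 q values at or below the median peak of the list. By fold enrichment the stronger mESC peak, at 4.74, and the 2CLC peak, at 4.28, lay above the median, with 42.1% and 47.2% of peaks at least as high. A second annotated transcript, Dppa2-201, starts 6569 bp further downstream, and the strongest peak of the locus in each list lay there. Its summit was 49 bp before that start in mESCs (−log10 q 6.44, fold enrichment 6.18) and 3 bp before it in 2CLCs (9.11 and 7.15), in an exon of Dppa2-202. By q, 35.0% of mESC peaks and 23.2% of 2CLC peaks were at least as strong. None of the peaks of the locus was among the 10000 strongest of its list.

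Between both starts, 5.29 kb into the gene, lay an intronic mESC summit with a −log10 q of 6.43, overlapped by a 2CLC peak with 2.66 and a summit 166 bp away. All 4 mESC peaks of the locus overlapped a 2CLC peak. The other 2CLC peaks were called in that list alone. Those with summits 9.28 and 10.3 kb into Dppa2 had −log10 q values of 1.41 and 1.30, the second at the lower limit of the list. The strongest, 16.9 kb from the Dppa2 start site and downstream of the gene, had a −log10 q of 5.30 and a fold enrichment of 5.25. Of the 200 bases around this summit 98.5% were soft-masked as repeats or low-complexity sequence in the reference, and their 31-base words occurred at a median of 63 copies in the genome. Reads with many matches were placed at a best or randomly chosen position, so the values at this summit do not tell which copy was bound. The summits of all 4 mESC peaks and of the remaining 6 peaks in 2CLCs had a copy number of 1.

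The intronic mESC summit and the downstream 2CLC summit are shown because their windows share an exact stretch of 23 bases, in capitals, on the Dppa2 strand of mm10. The first is chr16:48309119-48309269 and the second chr16:48320749-48320899.
Dppa2 intron, mESC summit: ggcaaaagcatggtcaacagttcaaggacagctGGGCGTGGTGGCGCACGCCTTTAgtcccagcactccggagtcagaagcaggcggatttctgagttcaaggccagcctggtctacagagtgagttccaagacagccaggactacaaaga
Dppa2 downstream, 2CLC summit: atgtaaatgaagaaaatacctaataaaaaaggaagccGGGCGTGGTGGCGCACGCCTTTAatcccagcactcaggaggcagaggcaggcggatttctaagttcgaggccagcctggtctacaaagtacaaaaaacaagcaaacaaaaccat
Of the 200 bases around the intronic summit 87.0% were soft-masked, so both windows are mostly repeat or low-complexity sequence. The stretch occurs on either strand in 0.141% of 200-base summit windows in mESCs and in 0.390% in 2CLCs. It was not counted outside peaks, so it is not shown to be particular to DPPA4 sites. Near the 5 genes it was in 2 of 37 mESC windows and 1 of 26 2CLC windows. The other mESC window lay in an intron of Gsta2, near Dppa5a.

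**Figure D1:**
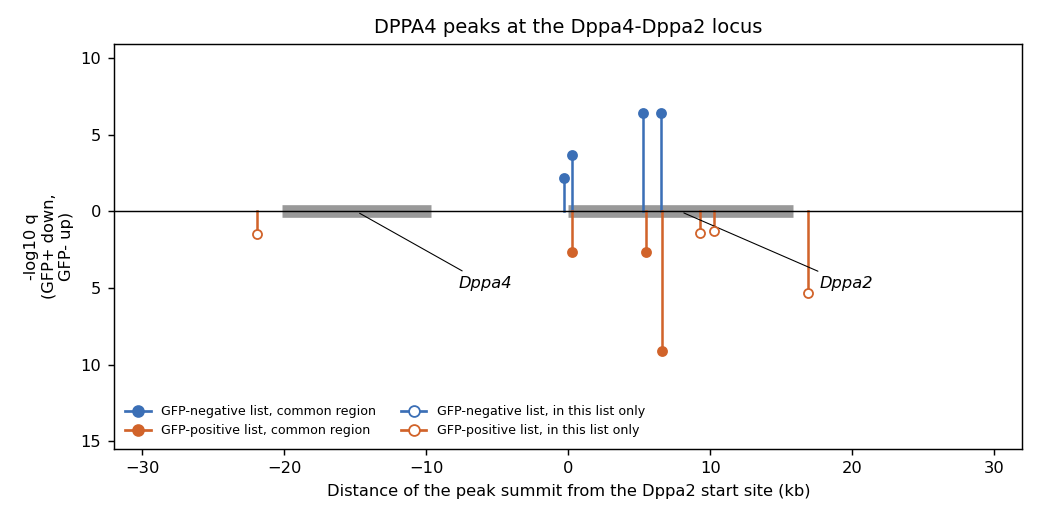
Peaks of the GFP-negative list (up) and the GFP-positive list (down) at the Dppa4-Dppa2 locus, by distance of the summit from the Dppa2 start site in kb and by −log10 q; each stem is 1 peak, grey bars are gene bodies, filled points belong to regions found in both lists and open points to regions of a single list. The 7 GFP-positive peaks include 4 open points and the 4 GFP-negative peaks none, and the highest stems, 6.44 and 9.11, stand at the second Dppa2 start.

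Peaks of both lists that overlap by at least 1 bp were joined into regions. The Dppa4-Dppa2 locus had 7 regions, of which 3 were common to both states, 0 were specific to mESCs and 4 (57.1%, Wilson 95% interval 25 to 84.2) were specific to 2CLCs. This interval, like the others given here, covers counting error only. Over all regions the shares were 35.0% common, 46.7% specific to mESCs and 18.4% specific to 2CLCs. These are also the background for the region counts of the other genes. The excess in 2CLCs rested on weak peaks: with a −log10 q of at least 5 the locus kept 2 peaks in each list. These formed 1 common, 1 mESC-specific and 1 2CLC-specific region. Summits within 200 bp as the criterion of sharing, or a distance of 100 kb, also gave 1 mESC-specific region in place of 0.

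Zfp42 (ENSMUSG00000051176.6, chr8:43295063-43306980, minus strand) had the strongest start-site peak of the 5 genes in both lists. In mESCs it had a −log10 q of 60.7 and a fold enrichment of 19.4, which placed it within the top 1.75% of peaks, and in 2CLCs it had 10.1 and 6.34, within the top 21.1%. The summit was at the same base in both lists, 102 bp upstream of the gene. Among all protein-coding genes 4.67% had a start-site peak at least as strong in mESCs and 24.7% in 2CLCs.

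The RefSeq promoter table held 1 of the 5 genes, Zfp42. The 250 bases before its start (chr8:43307010-43307259, minus strand, GRCm38) contain this summit and are shown with the octamer ATTTGCAT in capitals.
Zfp42 promoter: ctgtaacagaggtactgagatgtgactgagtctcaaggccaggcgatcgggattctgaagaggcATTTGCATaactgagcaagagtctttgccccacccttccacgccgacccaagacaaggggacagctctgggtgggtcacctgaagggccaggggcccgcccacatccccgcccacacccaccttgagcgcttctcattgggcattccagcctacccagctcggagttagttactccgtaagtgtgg
ATTTGCAT is the octamer that POU-domain factors are known to bind. It was searched on both strands after the sequences had been read, and 1.74% of the 32851 promoter windows in the table held it. The copy at Zfp42 ends 106 bp upstream of the summit, outside the 200 bases around it. A match is a description of letters and does not show binding.

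Away from its start, Zfp42 had 3 further peaks in mESCs and 5 in 2CLCs. A peak in its intron was common to both states, with a −log10 q of 2.12 in mESCs and 6.07 in 2CLCs. A 2CLC peak of 3661 bp with its summit 12.1 kb upstream (−log10 q 15.3, fold enrichment 9.30) covered 2 mESC peaks with values of 1.57 and 3.19. In contrast to the promoter, this upstream region had the higher value in the 2CLC list. The mESC summits lay 673 and 2024 bp from the 2CLC summit, and the depth behind each list is unknown. These values therefore do not compare 1 site between the states. The 2CLC summit of this region had a copy number of 38. The 3 regions specific to 2CLCs lay 4.98, 5.92 and 9.53 kb upstream, with copy numbers of 27, 37 and 35 and −log10 q values of 2.24, 2.15 and 1.93. Without peaks of copy number 2 or more, Zfp42 had 1 peak fewer in 2CLCs than in mESCs instead of 2 more.

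Dppa3 (ENSMUSG00000046323.8, chr6:122626410-122630272, plus strand) had the most peaks, 17 in mESCs and 10 in 2CLCs, forming 8 regions common to both states, 8 specific to mESCs and 2 specific to 2CLCs. As many peaks were found at 21.0% of genes in mESCs and at 25.7% in 2CLCs. The strongest mESC peak had its summit 1.75 kb upstream of the start site, with a −log10 q of 22.2 and a fold enrichment of 10.6, and had no counterpart in the 2CLC list. The window around this summit (chr6:122624584-122624734, plus strand) is shown because it holds 2 copies of ATTTGCAT, in capitals.
Dppa3 upstream, mESC summit: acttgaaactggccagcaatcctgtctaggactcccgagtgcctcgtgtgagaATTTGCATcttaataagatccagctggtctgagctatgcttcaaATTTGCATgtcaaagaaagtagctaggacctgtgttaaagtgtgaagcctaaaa
The octamer was present in 1.86% of mESC summit windows and 1.08% of 2CLC summit windows of 200 bases, and in this 1 of the 37 mESC windows near the 5 genes.

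The strongest 2CLC peak near Dppa3 lay 10.4 kb upstream. It had a −log10 q of 44.1 and a fold enrichment of 18.9, within the top 1.62% of its list. A mESC peak with its summit 10 bp away had a −log10 q of 2.89 and a fold enrichment of 4.03. The sequence at the 2CLC summit (chr6:122615959-122616019, plus strand) is a tandem repeat of TGACTC.
Dppa3 upstream, 2CLC summit: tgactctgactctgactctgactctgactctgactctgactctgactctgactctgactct
A period of 6 bases at 95% or more of positions was found in 7 of 54642 2CLC summit windows and 8 of 83602 mESC windows, this site among them in both lists. The 200 bases were 100% soft-masked and their copy number was 99. In a tandem repeat this number also counts words that recur within the array itself. It therefore does not tell whether the sequence lies elsewhere, and whether reads from other places add to this peak was not tested.

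Within Dppa3 itself both states had peaks in the intron. In mESCs the summits 817 and 1248 bp from the start had −log10 q values of 2.14 and 9.62. In 2CLCs the summits 873 and 1476 bp from the start had 3.44 and 3.50. Both 2CLC summits lay beyond the 0.5 kb limit of the start-site window, and Dppa3 was therefore counted without a start-site peak in 2CLCs. Allowing any base of the peak in the window, or a window of 1 kb to either side, counted it.

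The remaining Dppa3 peaks extended in both directions. Downstream, at 7.18 kb, a region was common to both states with −log10 q values of 15.8 and 11.5. At 14.3 kb the values were 2.67 in mESCs and 10.7 in 2CLCs, with copy numbers of 2 and 7 at the summits. A mESC-specific peak in an intron of Gdf3, the neighbouring gene for a TGF-beta family ligand, had 15.5. Another mESC-specific peak 36.7 kb downstream had 20.3 and a fold enrichment of 8.62, and lay 44.4 kb from the start site of Nanog, which encodes a core pluripotency factor. The peaks in an intron and an exon of Apobec1, the gene for a cytidine deaminase, were specific to mESCs at −log10 q values of 3.57 and 3.82. The 2 regions specific to 2CLCs had 1.46 and 2.24.

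Dppa5a (ENSMUSG00000060461.5, chr9:78367052-78368177, minus strand) had 12 peaks in mESCs and 3 in 2CLCs. As many were found at 32.2% of genes in mESCs and at 65.9% in 2CLCs. Its start site was occupied in both states, with summits 69 and 67 bp upstream that were 2 bp apart. The −log10 q there was 6.61 in mESCs and 5.46 in 2CLCs, and the fold enrichment 5.28 and 4.79. Of 13 regions 10 were specific to mESCs, 2 were common and 1 was specific to 2CLCs. The highest mESC-specific values were 9.87 at 1.38 kb upstream, 9.46 at 6.94 kb upstream and 8.12 in an exon of Ooep, the gene for an oocyte protein of the same family. The other common region lay 27.6 kb upstream at the start of Ddx43, the gene for an RNA helicase, and was the strongest of the window, with −log10 q values of 30.4 in mESCs and 11.0 in 2CLCs. The single 2CLC-specific peak had a value of 1.44.

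**Figure D2:**
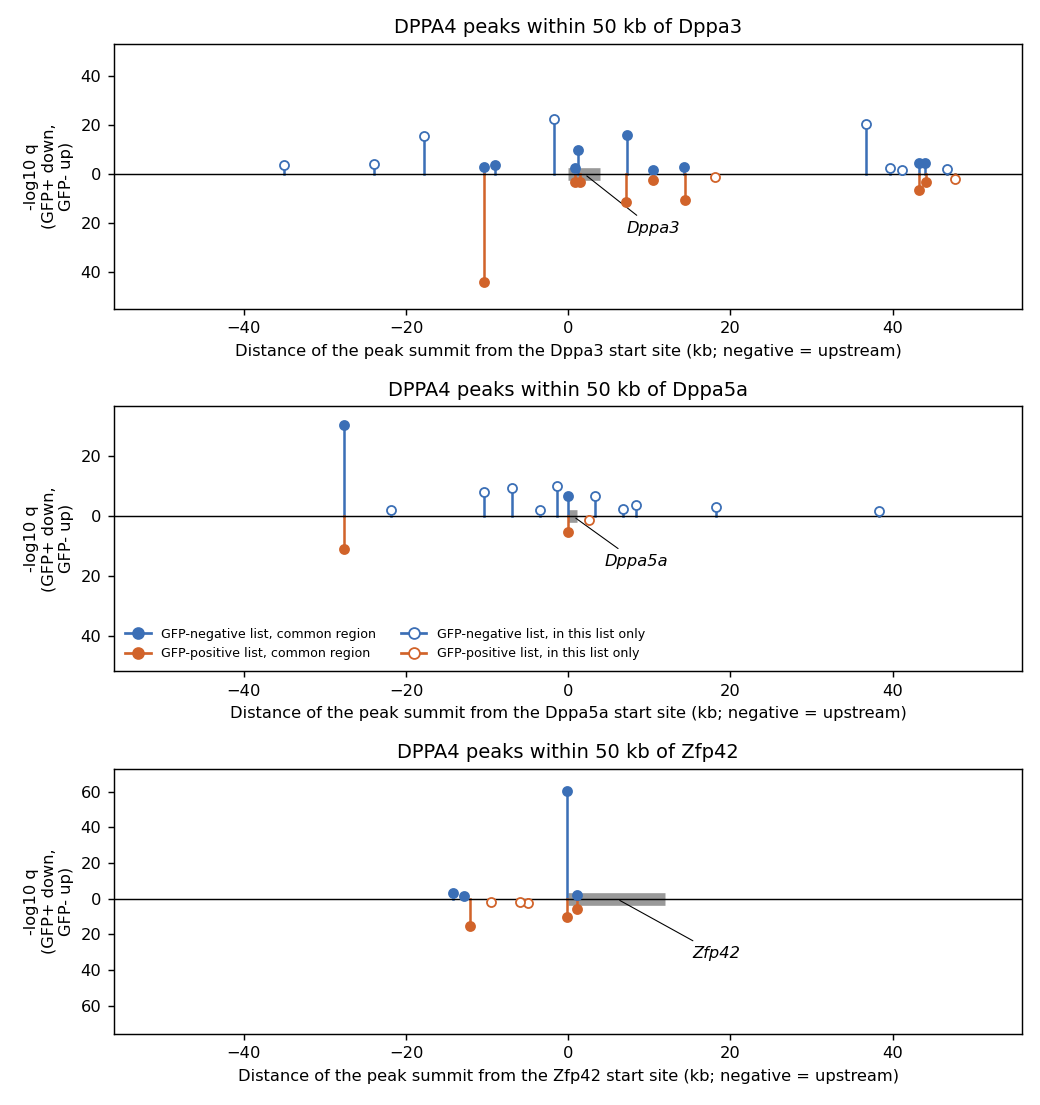
Peaks of the GFP-negative list (up) and the GFP-positive list (down) near Dppa3, Dppa5a and Zfp42, by distance of the summit from the start site of each gene in kb and by −log10 q; symbols are as at the Dppa4-Dppa2 locus and the vertical scale differs between panels. The tallest stems are the Zfp42 promoter at 60.7 and the Dppa3 tandem repeat at 44.1, and Dppa5a has 10 open GFP-negative points against 1 open GFP-positive point.

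Set side by side, a peak summit from 2.5 kb upstream to 0.5 kb downstream of the start was found for 4 of 5 genes in mESCs, against 60.6% of all protein-coding genes. The gene without was Dppa4. In 2CLCs it was 4 of 5, against 51.8%, and the gene without was Dppa3. Dppa2, Dppa5a and Zfp42, 3 of 5, had one in both lists, against 48.7%. With so few genes these counts cannot be told from the background. The strongest start-site −log10 q in mESCs was 60.7 at Zfp42, 22.2 at Dppa3, 9.87 at Dppa5a and 3.71 at Dppa2, while the median over genes with such a peak was 14.9. In 2CLCs the order was 10.1 at Zfp42, 5.46 at Dppa5a, 2.66 at Dppa2 and 1.46 at Dppa4, with a median of 9.34. Dppa4 in mESCs and Dppa3 in 2CLCs had no such peak. By this first start, 52.5% of genes in mESCs and 45.3% in 2CLCs had a start-site peak at least as strong as that of Dppa2. For Dppa4 in 2CLCs this share was 50.8%. These orders depend on the start and window used. With every annotated transcript start counted, Dppa2 had its peaks of 6.44 in mESCs and 9.11 in 2CLCs, the latter above Dppa5a. With 1 kb to either side, Dppa3 in mESCs rested on the intronic summit at 2.14, below Dppa2, and Dppa4 had no start-site peak in either list. Without replicates, neighbouring values in these orders cannot be separated by their spread.

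Over all 5 genes there were 44 regions. Of these 16 (36.4%) were common, against 35.0% of all 99695 regions, and 18 (40.9%) were specific to mESCs, against 46.7%. The remaining 10 (22.7%, Wilson 95% interval 12.8 to 37.0) were specific to 2CLCs, against 18.4%. The total lay near the background in each class, while the genes differed among themselves. The Dppa4-Dppa2 pair and Zfp42 had no mESC-specific region, whereas mESC-specific regions made up most of those at Dppa5a. The count of 0 at Zfp42 became 2 with summits within 200 bp as the criterion of sharing, and 1 among the 10000 strongest peaks or with copy number under 2. The count of 0 at the pair became 1 with the same criterion, with a −log10 q of at least 5 or within 100 kb. More peaks in 2CLCs than in mESCs were found at 3 of 5 genes, Dppa4, Dppa2 and Zfp42, against 17.7% of all genes, and these 3 genes are only 2 loci. The 2CLC-specific regions had a median −log10 q of 1.69, with 1 of 10 at 5 or more. The mESC-specific regions had a median of 3.69, with 7 of 18 at 5 or more. The common regions had 7.86 and 12 of 16, taken from the stronger peak over both lists, which favours higher values. These values were not computed over all regions of each class, so they do not show a trait of these genes. Of the peaks near the 5 genes, 14 of 37 in mESCs and 11 of 26 in 2CLCs reached 5, against 41.6% and 37.7% of the whole lists.

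**Figure D3:**
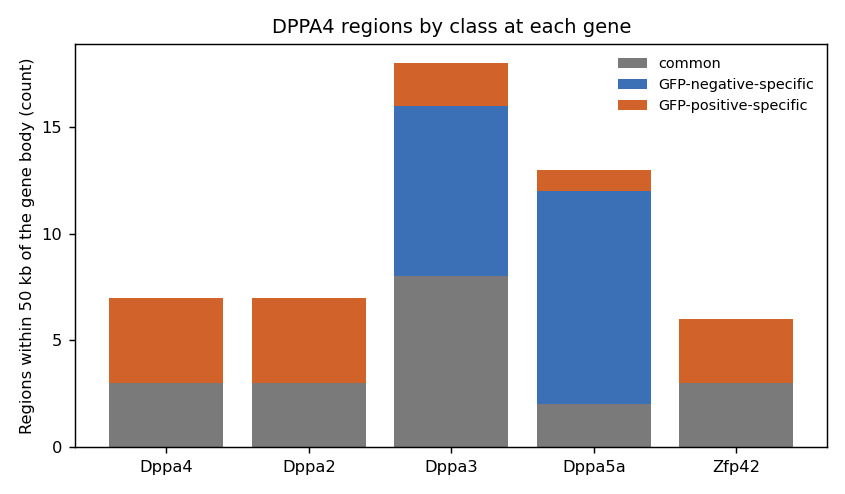
Number of DPPA4 regions within 50 kb of each gene body, stacked by class (common to both lists, GFP-negative-specific, GFP-positive-specific). Dppa4 and Dppa2 share the same 7 regions; Dppa3 has 18, Dppa5a 13 and Zfp42 6, and GFP-negative-specific regions appear at Dppa3 and Dppa5a.

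The start sites themselves lay below the median in CpG content, Dppa2 the furthest. The ratio of observed to expected CpG within 500 bp was 0.239 at Dppa2, 0.387 at Dppa4, 0.441 at Dppa5a, 0.443 at Dppa3 and 0.503 at Zfp42, all below the median of 0.552 over protein-coding genes. The share of genes at or below these ratios was, in the same order, 27.3%, 39.2%, 42.6%, 42.7% and 46.6%. Across all genes the share with a start-site peak rose with this ratio up to 1. It was 11.5% in mESCs and 7.63% in 2CLCs below a ratio of 0.25, the range of Dppa2. It was 48.7% and 32.2% from 0.25 to 0.5, the range of Dppa4, Dppa5a and Dppa3. From 0.5 to 0.75, where Zfp42 lay at the lower edge, it was 87.8% and 74.7%. Dppa2 therefore had a start-site peak in a range of CpG content in which few genes had one, but at the upper edge of that range. Just above this edge the shares were 48.7% and 32.2%. With a −log10 q of at least 5, Dppa2 had 0 start-site peaks in either list, whereas the shares count peaks of any strength. Genes share base composition with their neighbours, and these shares are given without a test.

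**Figure D4:**
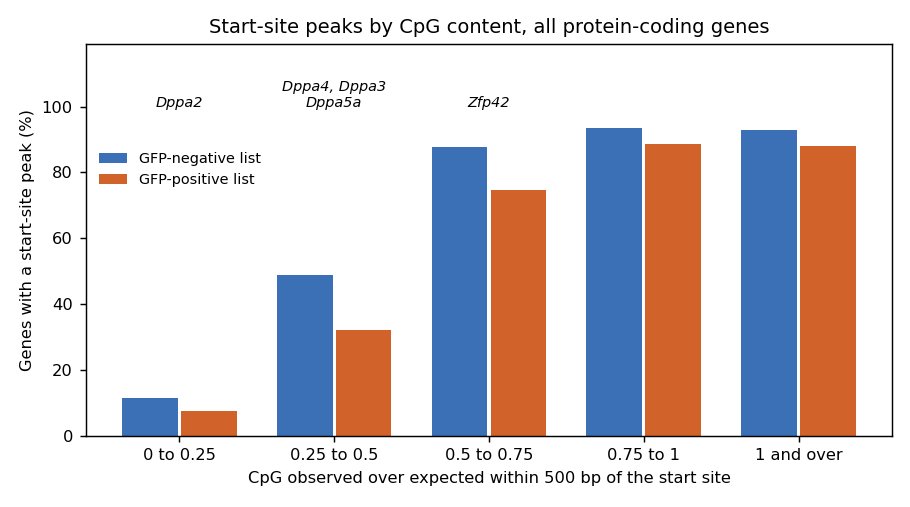
Percentage of protein-coding genes with a DPPA4 summit in the start-site window, by the ratio of observed to expected CpG within 500 bp of the start site, for both peak lists; gene names stand above the range in which each gene falls. The percentage rises from 11.5% to 93.6% in the GFP-negative list between the lowest range and that from 0.75 to 1, and all 5 genes fall in the 3 lower ranges.

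The sequence under the peaks near the 5 genes resembled that of the lists in base composition, with a median GC content of 51.5% in mESCs and 52.0% in 2CLCs against 55.0% and 56%. Over 50% of the 200 bases were soft-masked at 7 of 37 mESC and 9 of 26 2CLC summits, against 17.0% and 30.9% of the lists. A copy number of 2 or more was found at 5 and 9 summits, against 12.9% and 26.8%.

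Other pluripotency genes were read in the same way from a list of 25. A start-site peak was found for 16 in mESCs and 15 in 2CLCs, against 60.6% and 51.8% of all protein-coding genes. Such a peak was found for 14 in both lists, against 48.7%, and for 8 in neither. These counts were not tested against the background. In mESCs the highest start-site −log10 q values were those of Klf5 (72.0), which encodes a zinc finger factor of naive pluripotency, and Lin28a (54.9), which encodes an RNA-binding protein. The lowest were those of Nr0b1 (2.14), the gene for the nuclear receptor DAX1, and Prdm14 (2.56), the gene for a PR-domain regulator of naive pluripotency. Set beside the 16 genes with such a peak in mESCs, Zfp42 thus stood between the highest. Dppa2, by its first start, stood near the lowest. Genes of the list without a start-site peak are not in this order. In this list 24 genes had more peaks in mESCs and 1, Tet1, the gene for a methylcytosine dioxygenase, had more in 2CLCs, unlike the Dppa4-Dppa2 pair and Zfp42. Over all protein-coding genes 17.7% had more in 2CLCs. Of the 452 regions of the list 35.6% were common, 55.3% specific to mESCs and 9.07% (6.76 to 12.1) specific to 2CLCs. Over all regions these shares were 35.0%, 46.7% and 18.4%. Gdf3 is on this list and shares regions with Dppa3. By the sum of absolute differences in the 3 region counts, the genes nearest the Dppa4-Dppa2 pair were Nr0b1 (7), Klf4 (8) and L1td1 (8). Nr5a2 was tied at 8 and left out by alphabetical order. Nr0b1 had 1 common, 1 mESC-specific and 0 2CLC-specific regions, Klf4 had 5, 2 and 0, and L1td1 had 2, 6 and 3. The pair had no mESC-specific region, so these genes do not share its pattern. A sum of this kind can also be small for a gene with few regions. Relatives by name or family (Yy1, Yy2, Dppa1, Ooep and Khdc3) had 12 common, 27 mESC-specific and, for 2CLCs, 7 specific regions, some of them shared with Dppa5a through Ooep. These were 26.1%, 58.7% and 15.2% of their regions, against 35.0%, 46.7% and 18.4% of all regions. The 5 genes of the 2-cell stage read for reference had 60 regions, of which 83.3% were specific to 2CLCs, against 18.4% of all regions. Most of the 2CLC-specific regions lay at Zscan4c (18 of 19 regions), Zscan4d (15 of 15) and Tcstv1 (15 of 15). Reads with many matches were placed at a single position, and copy number was not read at these genes. Their regions may therefore not be separate binding sites. At Duxf3 7 of 10 regions were common and 2 were specific to 2CLCs, and the single region at Zfp352 was specific to mESCs.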

How the data were processed

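CUT&RUN was run on 6 samples, grouped by their titles, of which 2 were IgG libraries and the rest DPPA4 libraries. As stated in the methods and the submitters' processing notes, the authors trimmed reads with bbduk, aligned them to mm10 with STAR 2.7.10, which placed multimapping reads at a single position, removed duplicates (Picard 2.26.0) and blacklisted regions, used SAMtools 1.14 and bedtools 2.30.0, and called peaks with MACS2 2.2.6. The labels and the methods give different ranges of input cells. Whether IgG served as the control was not given in the sources used here, and the IgG libraries were not used. Per the deposited lists, each pooled over 2 libraries, the values were the authors' fold enrichment (a ratio), their −log10 q (q-value) and a score. The q-value at the lowest −log10 q was 0.05. Fold enrichment and −log10 q were read within each list, and the score was not used. Per-sample columns left unused numbered 0.

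Peaks were read with Python 3.11.15 and numpy 2.4.6 and set beside GENCODE vM21 genes, with 1-based coordinates. Peak ends beyond a chromosome end numbered 0. Intervals came from scipy 1.17.1. Words of 31 bases were taken from the 200 bp centred on each summit, and their median count in the genome was the copy number. Soft-masking was that of the RefSeq GRCm38 sequence. The counting code was tested on simulated peaks. Alternatives were distances of 10 and 100 kb, a −log10 q of at least 5, the 10000 strongest peaks of each list, other overlap and start-site definitions and, added after seeing the data, any base in the start-site window and copy number under 2. All 5 genes were named, with the genes under their peaks. From the pluripotency list the 2 highest and 2 lowest at the start site in mESCs were named. So were the 3 with the smallest summed count difference from the Dppa4-Dppa2 pair and, after their values were seen, Tet1 and the tied Nr5a2. The genes, lists and sequences were chosen with earlier results of these data known.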

Additional observations from a re-analysis of the deposited data

How the results depend on the processing

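Of 308 recomputed values, 176 stayed the same or within the limit set for counts, 130 moved and 2 changed direction. The limit for counts was a ratio of 1.5. Differences between the lists and the strongest −log10 q values counted as moved with any change. The 2CLC minus mESC difference in peaks near Dppa3 went from -7 to 1 among the 10000 strongest peaks of each list, and that near Zfp42 from 2 to -1 with copy number under 2 (added after seeing the data). The cause was not tested. The 37 mESC peaks became 20 within 10 kb, 59 within 100 kb, 14 with a −log10 q of at least 5 and 3 among the 10000 strongest. The 26 2CLC peaks became 11 at a −log10 q of at least 5, 3 among the 10000 strongest and 17 with copy number under 2. The 16 common regions became 5 at a −log10 q of at least 5 and 0 among the 10000 strongest. The 18 mESC-specific regions became 8 within 10 kb, 33 within 100 kb, 9 at a −log10 q of at least 5 and 3 among the 10000 strongest. The 10 2CLC-specific regions became 6, 3 and 4 at a −log10 q of at least 5, among the 10000 strongest and with copy number under 2. Regions were formed again from the peaks left, so a common region that lost its partner peak counted as specific. Of the original regions, 1 of 10 2CLC-specific, 7 of 18 mESC-specific and 12 of 16 common ones reached 5. A start-site peak was left for 2 of 5 genes in mESCs among the 10000 strongest, and in 2CLCs for 2 at a −log10 q of at least 5 and 0 among the 10000 strongest. Fewer peaks are left by these limits by construction. No paired analysis was possible because the replicates were pooled before peaks were called, and for the same reason no replicate could be left out. Depth after filtering is unknown and limits what the absence of a peak can say.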
